A study of Mus musculus with 2 samples.

Results

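Neutrophil-leaning and monocyte-leaning barcodes of mouse liver were examined, 124 of the 5805 barcodes kept in 2 single-cell libraries. A barcode was a member when it held at least 3 unique molecular identifiers (UMIs, counted RNA molecules) summed over 8 marker genes. It also had to hold 0 UMIs of Clec4f, Cd5l, Vsig4 and Timd4, the 4 genes used to leave out Kupffer cells, the resident macrophages of the liver. The markers were the neutrophil genes S100a8, S100a9, Ngp, Mmp8 and Csf3r and the monocyte genes Ly6c2, Ccr2 and Chil3. A member was called neutrophil-leaning or monocyte-leaning by the side with more UMIs, and no member was tied. These marker UMIs chose the barcodes, so they are given as a description only.

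Neutrophils are short-lived phagocytes that leave the bone marrow with their granules already filled, and they reach an inflamed organ from the blood within hours. Classical monocytes carry the chemokine receptor CCR2 and follow them, and some become macrophages in the tissue. In the liver both cell types enter the sinusoids, where integrins and chemoattractant receptors hold and guide them. Concanavalin A (Con A), a plant lectin that activates T cells, is widely used to bring about acute immune injury of the mouse liver.

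An AAV vector (adeno-associated virus) carrying either a scrambled short hairpin RNA (scramble) or one against Bicd2 (shBicd2) was given to wild-type C57BL/6J mice when they were 4 weeks old. After 3 weeks all mice received 15 mg/kg Con A intravenously, and livers were taken 6 h later. Each group is 1 library of the 10x 3' chemistry, kit version 3.1, and there was no liver without Con A, so arrival of cells was not measured. The promoter of the hairpin, the AAV serotype and the number of mice per library are not given in the sources used here.

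The libraries held 2805 barcodes with 5086306 UMIs (scramble) and 3038 barcodes with 5624055 UMIs (shBicd2), and 2791 and 3014 barcodes were kept. Median depth was 1510 and 1507.5 UMIs per kept barcode. The libraries shared 3 barcode sequences, of which 0 were members. Bicd2 (chromosome 13, 49341585 to 49387026, GRCm38), the target, was not lower in the shBicd2 library. All barcodes outside the members held 83 Bicd2 UMIs (16.5 CPM, UMIs scaled to a common total per set) in scramble and 105 (19.5 CPM) in shBicd2. Members held 0 Bicd2 UMIs in scramble and 3 in shBicd2, all 3 in neutrophil-leaning barcodes. The groups are therefore called the library labelled scramble and the library labelled shBicd2. With 1 library per group no test is possible. All intervals are exact 95% intervals that cover counting error only, and nothing measures the spread between mice.

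Promoter letters of 3 genes are shown. S100a9 and Chil3 are a neutrophil and a monocyte marker of the rule, and Ltf is a granule gene that the rule did not use. Chil3 had UMIs on both sides, as given below. C/EBP factors and PU.1 are transcription factors known to drive myeloid genes. Capitals mark matches on either strand to the letters TTNNGNAA (C/EBP) or GAGGAA (the PU.1 core), and no match shown overlaps another. The sequences are the 250 bases before the RefSeq start site, read 5' to 3' along the gene, from GRCm38.
S100a9, chr3:90695722-90695971, minus strand: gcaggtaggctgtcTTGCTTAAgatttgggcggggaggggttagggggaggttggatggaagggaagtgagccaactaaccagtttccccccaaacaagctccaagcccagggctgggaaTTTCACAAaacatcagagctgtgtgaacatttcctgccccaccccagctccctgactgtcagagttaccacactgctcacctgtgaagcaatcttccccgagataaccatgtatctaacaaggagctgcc
Ltf, chr9:111019042-111019291, plus strand: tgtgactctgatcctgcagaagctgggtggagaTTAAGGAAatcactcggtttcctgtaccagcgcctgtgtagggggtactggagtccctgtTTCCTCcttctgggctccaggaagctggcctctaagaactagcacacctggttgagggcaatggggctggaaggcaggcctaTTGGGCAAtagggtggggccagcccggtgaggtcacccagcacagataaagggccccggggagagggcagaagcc
Chil3, chr3:106167565-106167814, minus strand: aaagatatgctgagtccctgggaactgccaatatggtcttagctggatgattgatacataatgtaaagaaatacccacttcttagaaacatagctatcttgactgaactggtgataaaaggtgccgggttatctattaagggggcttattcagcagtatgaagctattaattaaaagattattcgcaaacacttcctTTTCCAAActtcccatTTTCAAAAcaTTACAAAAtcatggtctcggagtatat
S100a9 held 2 C/EBP matches and 0 PU.1 matches, Ltf held 2 and 1, and Chil3 held 3 and 0. Of 32536 promoters of this length, 36.8% held the C/EBP letters and 23.4% the PU.1 letters. A match describes letters and is not a measured binding site.

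Members were more frequent in the library labelled shBicd2. They made up 0.609% of kept barcodes in scramble (17 of 2791, interval 0.355 to 0.973%) and 3.55% in shBicd2 (107 of 3014, interval 2.92 to 4.27%). The ratio of the shares was 5.83 (interval 3.48 to 10.4). Neutrophil-leaning barcodes numbered 13 and 89, a ratio of 6.34 (interval 3.52 to 12.4). Monocyte-leaning barcodes numbered 4 and 18, a ratio of 4.17 (interval 1.37 to 16.9). With mitochondrial UMIs limited to 10%, the monocyte-leaning counts were 4 and 9, a ratio of 2.07 whose interval of 0.577 to 9.19 includes 1. The neutrophil-leaning share of the members was 76.5% in scramble (interval 50.1 to 93.2%) and 83.2% in shBicd2 (interval 74.7 to 89.7%), and these intervals overlap. A further 1 and 7 barcodes met the marker threshold but held a Kupffer UMI and were left out. After each barcode was thinned to 1000 UMIs, 4 of 2033 and 29 of 2153 barcodes met the rule, a ratio of 6.85.

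Marker UMIs outside the members also differed between the libraries, and this stands beside every share above. Barcodes outside the members held neutrophil-marker UMIs at 41.9 CPM in scramble and 145 CPM in shBicd2. A neutrophil-marker UMI was present in 6.89% of those barcodes in scramble (191 of 2774) and in 22.0% in shBicd2 (640 of 2907), at median depths of 1510 and 1513 UMIs. A monocyte-marker UMI was present in 0.901% and 2.96%. The part of free RNA in the difference between the libraries was not tested.

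Most members sat near the threshold. Exactly 3 marker UMIs were found in 7 members of scramble and 42 of shBicd2, and just outside, 24 and 141 barcodes held 2. Neutrophil-leaning barcodes with 3 to 4 marker UMIs numbered 7 and 50, those with 5 to 7 numbered 5 and 14, and those with 8 or more numbered 1 and 25. The highest count was 13 in scramble and 91 in shBicd2. The barcodes with 8 or more are called marker-rich below. Their ratio was 23.2, but it rests on 1 scramble barcode and its interval runs from 3.79 to 951. The only marker-rich barcode of scramble held 13 neutrophil-marker UMIs among 1490 UMIs, with 1 Ltf and 2 Retnlg UMIs.

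**Figure D1:**
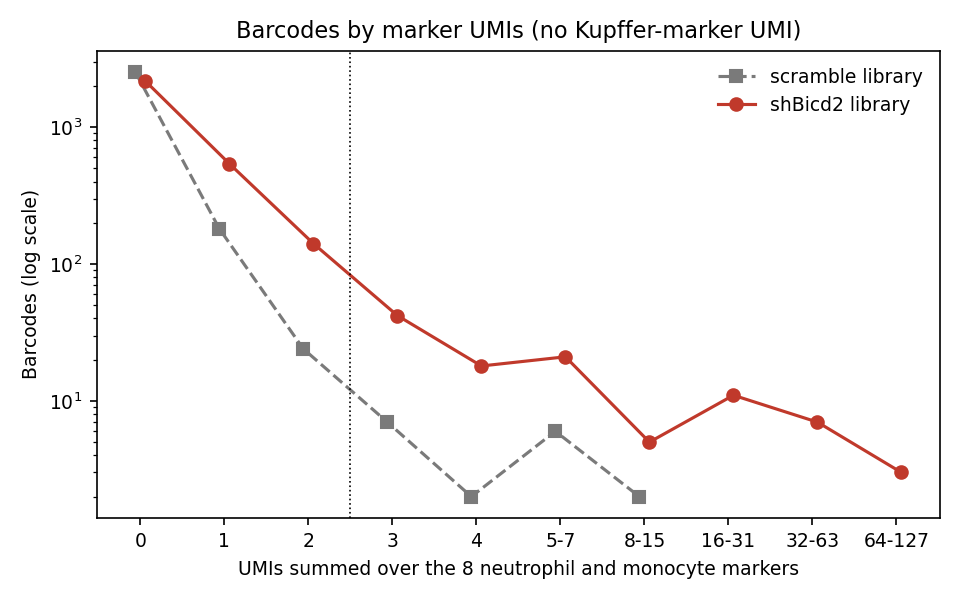
Number of kept barcodes without a Kupffer-marker UMI (y axis, log scale) against UMIs summed over the 8 markers (x axis, bins, empty bins not drawn), for the library labelled scramble (grey squares) and the library labelled shBicd2 (red circles). The dotted line marks the member threshold between 2 and 3 UMIs; the shBicd2 line lies above the scramble line from 1 UMI on and runs up to 91 UMIs.

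The near-threshold and marker-rich barcodes were not alike in RNA that the rule did not use. All 25 marker-rich barcodes of shBicd2 held a UMI of the 16 pan-leukocyte genes, which most white blood cells express, and 23 held at least 2, with a median of 4. Of the 64 neutrophil-leaning barcodes with 3 to 7 marker UMIs, 34 did (53.1%), with a median of 1. The share was 52.5% in barcodes with 2 marker UMIs and 36.7% in all barcodes outside the members. Of the 18 monocyte-leaning barcodes, 17 held a leukocyte UMI (94.4%), with a median of 4. In scramble it was 6 of 13 neutrophil-leaning and 4 of 4 monocyte-leaning barcodes, against 23.7% outside the members. Leukocyte genes were thus found in every marker-rich barcode of shBicd2, while the group with 3 to 7 is called by its marker count only.

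Hepatocyte RNA, summed over 24 genes such as Alb, separated the members further. In shBicd2 the median hepatocyte share was 4.31% of UMIs in marker-rich barcodes, 7.53% in those with 3 to 7 marker UMIs and 1.19% in monocyte-leaning ones, against 5.92% outside the members. A hepatocyte share of 10% or more was found in 28 of the 107 members of shBicd2 and in 0 of the 17 of scramble. Outside the members it was found in 8.69% of kept shBicd2 barcodes and 4.55% of kept scramble barcodes. The 27 neutrophil-leaning ones among the 28 had a median of 3 marker UMIs, 7.5% mitochondrial UMIs and 924 UMIs. Without barcodes of 10% or more, members numbered 17 and 79, a ratio of 4.30 (interval 2.53 to 7.75). The deepest member had 18889 UMIs, 3609 genes, 20 marker UMIs and a hepatocyte share of 21.8%. Results for the marker-rich barcodes are therefore also given without it.

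**Figure D2:**
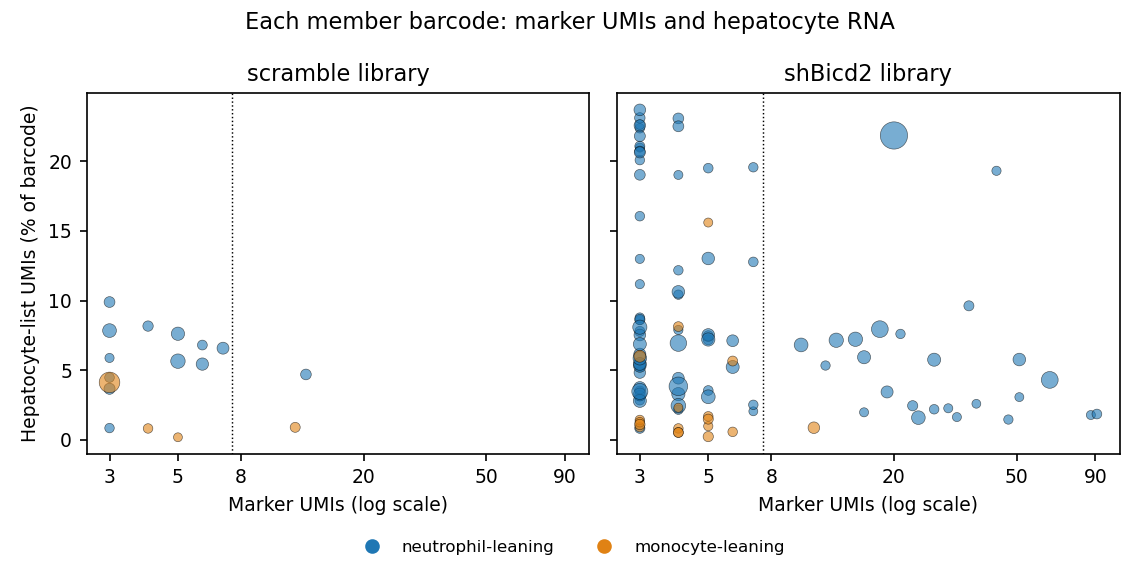
Each member barcode by its marker UMIs (x axis, log scale) and the share of its UMIs from 24 hepatocyte genes (y axis, percent), in the library labelled scramble (left) and the library labelled shBicd2 (right). Blue points are neutrophil-leaning, orange points monocyte-leaning, point area grows with total UMIs, and the dotted line separates 7 from 8 marker UMIs; the 28 barcodes at 10% or more are all in shBicd2 and most lie at 3 or 4 marker UMIs.

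The marker genes themselves describe the 2 sides. S100a8 and S100a9 (chromosome 3) encode the subunits of calprotectin, the main cytosolic protein of neutrophils, and each had a UMI in all 25 marker-rich barcodes, with 306 and 322 UMIs. Ngp (neutrophilic granule protein, chromosome 9) had 97 UMIs in 15 of them. Mmp8, the neutrophil collagenase, had 70 UMIs in 15. Csf3r, the receptor for G-CSF, had 13 UMIs in 8. Within neutrophil-marker UMIs, Csf3r took 1.61% in the marker-rich barcodes and 6.13% outside the members of shBicd2, and 22.7% outside the members of scramble. In the 13 neutrophil-leaning barcodes of scramble, S100a9 had 33 UMIs, S100a8 12 and Ngp 12. On the monocyte side of shBicd2, Ccr2 had 30 UMIs in 13 of 18 barcodes, Ly6c2 22 in 12 and Chil3 22 in 9. In scramble, Ccr2 had 15 UMIs in 4 of 4 monocyte-leaning barcodes. Ccr2 had 0 UMIs in all 102 neutrophil-leaning barcodes of both libraries, while Chil3 had 19 UMIs in 12 marker-rich ones.

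Genes that the rule did not use were then compared between each set of shBicd2 members and the barcodes outside the members of the same library. A gene was called higher or lower when the bound of its ratio nearest to 1 lay beyond 1.5-fold. Of the 10613 genes with at least 20 UMIs in the library, 3.2% were called higher and 0.584% lower in the marker-rich barcodes (340 and 62, or 237 and 137 with trimmed mean scaling, which moves all ratios by -0.30 log2). Barcodes were chosen by correlated genes of the same cells, so these counts describe the sets and support nothing beyond that. The 20 UMIs included those of the members, so some genes passed only through them. Outside the members Cxcr2 had 13 UMIs, Clec4e 10, Cd177 16, C5ar1 16, F13a1 13 and Ccr1 13. Other list genes under 20 there included Fpr2, Ifitm6, Asprv1, Adam8, Csf1r, Ifi27l2a, Cd53, Lsp1 and Cytip. The counts of list genes called higher and the list medians below are therefore partly set by this filter. Scramble had 17 members, too few for a comparison of list medians or profiles between libraries, so its counts are set beside those of shBicd2.

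Granule genes stood out in the marker-rich barcodes. Of 11 genes of the secondary and tertiary granules, the stores of antimicrobial proteins and matrix-cutting enzymes, 7 were measured and all 7 were called higher, with a median log2 ratio of 5.57 against 0.26 over all genes. Among those not measured, Camp had 17 UMIs in the library, only 5.88% of them in members, and Mmp25 had 18, with 44.4% in members. Ltf (lactoferrin, an iron-binding protein; chromosome 9, 111019271 to 111042767) had 56 UMIs in 10 of 25 barcodes, 821 CPM against 8.35 outside the members, a ratio of 98.4 (interval 65.3 to 149). Mmp9, gelatinase B, had 30 UMIs in 14 barcodes, a ratio of 74.1 (interval 43.5 to 126). Mmp9 was thus detected in more of these barcodes than Ltf. Retnlg, a resistin-like protein of myeloid cells, had 46 UMIs in 14 barcodes, 675 against 14.3 CPM, a ratio of 47.2 (interval 32 to 68.9). Cd177, a surface protein of neutrophils, had 17 UMIs in 7 barcodes and a ratio of 84.0 (interval 39.9 to 178). Pglyrp1, a peptidoglycan-binding protein, had a ratio of 26.4 (interval 13.6 to 48.2). Lcn2, which hepatocytes also make in inflammation, had a ratio of only 1.96 (interval 1.73 to 2.21). Without the deepest barcode, 5 of 7 were called higher, and Lcn2 (1.41) and Adam8 (12.1, on 2 UMIs) were not.

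The same genes were at lower levels in the near-threshold barcodes. Over the 64 barcodes with 3 to 7 marker UMIs, where 1.39% of genes were called higher and 0.226% lower, 3 of the 7 granule genes were called higher. Ltf had 9 UMIs in 6 barcodes, 72.2 CPM, a ratio of 8.65 (interval 3.72 to 17.9). Mmp9 had a ratio of 9.46 (interval 3.52 to 21.8) and Retnlg one of 5.62 (interval 2.59 to 10.9). In scramble, all 13 neutrophil-leaning barcodes together held 7 Ltf UMIs in 4 barcodes, 277 CPM against 0.992 outside the members. Retnlg had 4 UMIs in 2 of the scramble barcodes, a ratio of 23.5 (interval 6.05 to 65.8). Mmp9 and Cd177 had 0 UMIs in the 13 scramble barcodes, where 3 counts, the limit that 0 allows, would be 119 CPM. Genes of the primary granules, made early in the bone marrow, were at 0 in all neutrophil-leaning barcodes of both libraries for Mpo, Elane and Prtn3.

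Receptors and enzymes of circulating neutrophils were also found in the marker-rich barcodes. Of 10 measured genes in a list of other neutrophil genes, 9 were called higher, with a median log2 ratio of 4.98, and without the deepest barcode 7 were. Cxcr2, Clec4e, Fpr2, Ifitm6 and Asprv1 reached 20 UMIs only with those of the members, while Clec4d, with 14 in the library, was not measured. Cxcr2, the receptor for the neutrophil-attracting chemokines CXCL1 and CXCL2, had 10 UMIs in 7 of 25 barcodes, a ratio of 60.8 (interval 23.9 to 150). Il1r2, the decoy receptor for interleukin 1, had 13 UMIs in 7 barcodes and a ratio of 51.4 (interval 23.5 to 109). Hdc, the enzyme that makes histamine, had 20 UMIs in 13 barcodes and a ratio of 35.1 (interval 19.7 to 60.7). Clec4e, a receptor for microbial glycolipids, had a ratio of 63.2 and the formyl peptide receptor Fpr2 one of 35.9. Wfdc21 (3.12) and Lrg1 (2.29), both also made by hepatocytes, were the calls that rested on the deepest barcode. In the barcodes with 3 to 7 marker UMIs, Hdc (11.5), Ifitm6 (9.61) and Wfdc21 (2.33) were called higher, 3 of 10. Cxcr2 had 0 UMIs in those 64 barcodes, where 3 counts would be 24.1 CPM, and 0 in the scramble members. In scramble, Il1r2 had 3 UMIs in 3 neutrophil-leaning barcodes, a ratio of 31.5 (interval 5.97 to 107). Some of these genes were not particular to the neutrophil side. In the monocyte-leaning barcodes of shBicd2, Clec4e, Fpr2 and Ifitm6 were also called higher, 3 of 10, with a median log2 ratio of 3.12. Of the 7 granule genes, 1 was called higher there, Adam8.

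**Figure D3:**
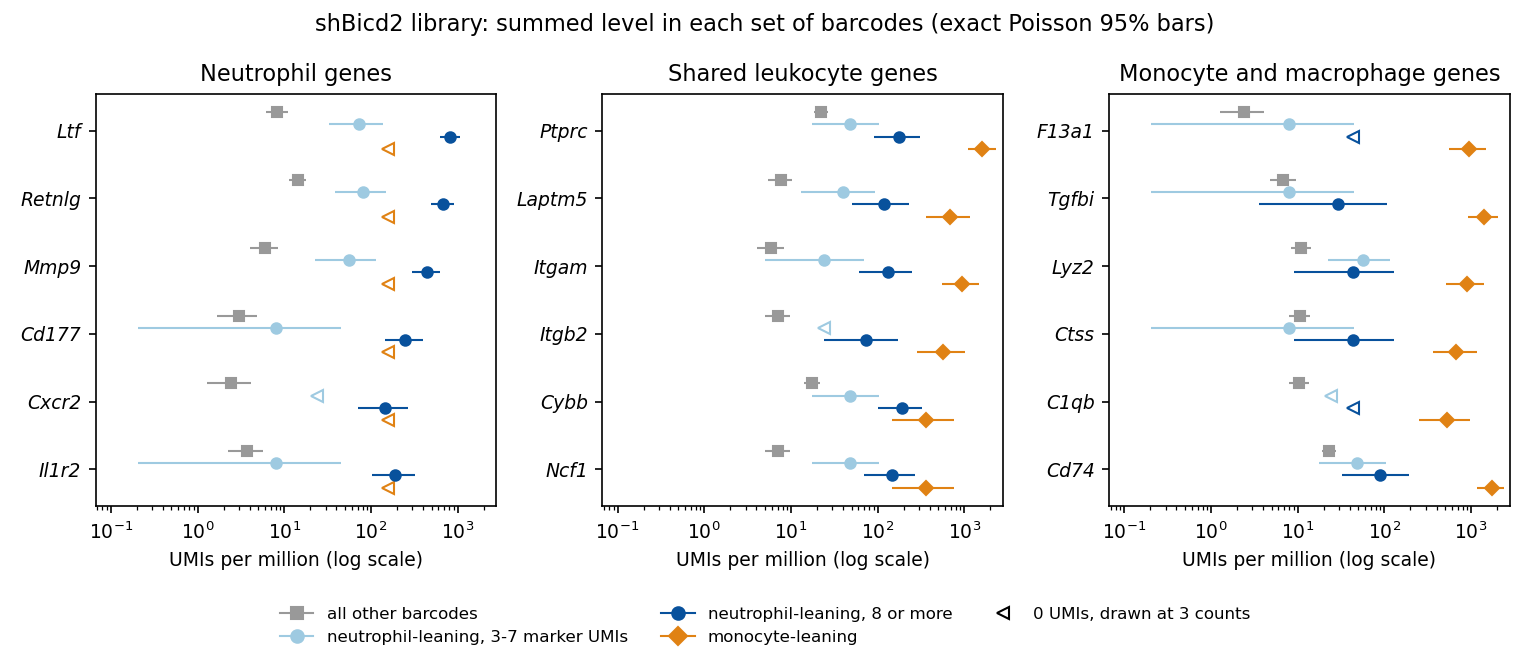
Summed level of 18 genes (x axis, CPM, log scale, with exact Poisson 95% bars) in the library labelled shBicd2, for all barcodes outside the members (grey squares), neutrophil-leaning barcodes with 3 to 7 (light blue) or 8 or more (dark blue) marker UMIs, and monocyte-leaning barcodes (orange diamonds). Open triangles stand for 0 UMIs and are drawn at 3 counts; the 6 neutrophil genes are highest in the dark blue set and at 0 in the orange set, while the shared leukocyte genes and the monocyte and macrophage genes are highest in the orange set.

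Adhesion and chemoattractant receptors, by which leukocytes leave the blood, were detected on both sides. In the marker-rich barcodes, 9 of 13 measured genes were called higher, also without the deepest barcode, with a median log2 ratio of 3.50. C5ar1, the receptor for the complement fragment C5a, had 9 UMIs in 6 barcodes and a ratio of 44.5 (interval 17.3 to 107). Itgam, the alpha chain of the integrin Mac-1, had 9 UMIs in 7 barcodes and a ratio of 22.2 (interval 9.33 to 47.7), and its partner Itgb2 a ratio of 10.4 (interval 3.20 to 26.5). In barcodes with 3 to 7 marker UMIs, 0 of 13 were called higher, with Itgam at 3 UMIs (4.06, interval 0.795 to 13) and Itgb2 at 0. Of the 4 measured subunits of the NADPH oxidase, the enzyme of the respiratory burst, 3 were called higher in the marker-rich barcodes, Ncf1 (20.8) and Cybb (10.9) among them. In the barcodes with 3 to 7 marker UMIs, Ncf1 alone was called (6.83, interval 2.36 to 16.3).

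General leukocyte genes followed the same order. Of 16 pan-leukocyte genes, 11 were called higher in the marker-rich barcodes, also without the deepest barcode, with a median log2 ratio of 3.32. Ptprc (CD45) had 12 UMIs in 9 of 25 barcodes and a ratio of 7.91 (interval 3.97 to 14.3), and Laptm5, a lysosomal protein of blood cells, had a ratio of 15.4 (interval 6.25 to 33.3). In the barcodes with 3 to 7 marker UMIs 1 of 16 was called, Laptm5 (5.28, interval 1.63 to 13.3). In scramble, Ptprc had 2 UMIs in 2 of 13 neutrophil-leaning barcodes, a ratio of 1.47 (interval 0.177 to 5.37). Its level outside the members was 53.8 CPM in scramble and 22.3 in shBicd2.

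Hepatocyte genes moved with these sets. Of 24 hepatocyte genes, 13 were called higher in the marker-rich barcodes, but 0 of 24 without the deepest barcode, where Alb had a ratio of 1.14 (interval 0.916 to 1.40). In the barcodes with 3 to 7 marker UMIs 11 of 24 were called higher, with Alb at 2.99 (interval 2.75 to 3.25). Their part in the results was not tested. In the 10 marker-rich barcodes with a hepatocyte share under 3%, which had a median of 683.5 UMIs, neutrophil-marker UMIs reached 39411 CPM, against 11851 over all 25.

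Genes of chemokines and cytokines were called in both directions. In the marker-rich barcodes, 2 of 14 were called higher, Il1b and Ccl9, and 4 lower, Cxcl1, Cxcl2, Ccl2 and Cxcl10, with a median log2 ratio of 0.37, or -0.08 without the deepest barcode. Il1b, the precursor of interleukin 1 beta, had 6 UMIs in 4 barcodes and a ratio of 27.9 (interval 9.01 to 74.2). Its count was 2 in the barcodes with 3 to 7 marker UMIs and 0 in monocyte-leaning ones and in the scramble members. All 9 Ccl9 UMIs were in the deepest barcode. Cxcl1 (0.535) and Cxcl2 (0.388), ligands of Cxcr2, were lower, and so were Cxcl10 (0.477) and Ccl2 (0.363), but without the deepest barcode the call was kept by Ccl2 (0.301) alone. Jun (0.301, interval 0.201 to 0.433) and Hspa1b (0.0842, interval 0.0229 to 0.216) were among 8 of 14 immediate early and heat shock genes called lower, while 0 were called higher. Without the deepest barcode 7 were called lower. This was not particular to the marker-rich barcodes: in monocyte-leaning ones 7 of 14 were called lower and 0 higher, with a median log2 ratio of -2.03.

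Slfn4, an interferon-induced gene of myeloid cells, was called higher in every set that was compared. It had 60 UMIs in 18 of 25 marker-rich barcodes, 880 against 62.2 CPM, a ratio of 14.2 (interval 10.6 to 18.7). The ratio was 3.87 (interval 2.57 to 5.63) in those with 3 to 7 marker UMIs, and 16 (interval 9.49 to 25.3) in monocyte-leaning ones. In the neutrophil-leaning barcodes of scramble, Slfn4 had 9 UMIs in 5 barcodes, a ratio of 8.02 (interval 3.62 to 15.5). Few of its group did the same: 2 of 23 type I interferon genes were called higher in the marker-rich barcodes, Slfn4 and Oas3 (14.1, interval 4.26 to 37.0). Of 23 interferon gamma genes, the GTPase Gbp2 was called higher (4.46, interval 3.33 to 5.87), and the transcription factor Irf1 lower (0.35, interval 0.237 to 0.497).

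Monocyte-leaning barcodes carried genes of classical monocytes and of young macrophages. Over the 18 of shBicd2, 5.7% of genes were called higher and 1.48% lower than outside the members, and 8 of 12 measured classical monocyte genes were called higher, with a median log2 ratio of 5.79. The median over all genes was 1.06 in this set of 19150 UMIs, since 0.5 count was added to each sum. Trimmed mean scaling moves all ratios of this set by -1.26 log2, and the calls over all genes from 605 higher and 157 lower to 268 and 576. F13a1 (coagulation factor XIII A chain; chromosome 13, 36867178 to 37050244) had 18 UMIs in 9 barcodes, 940 against 2.41 CPM, a ratio of 390 (interval 181 to 865). Lyz2, lysozyme, had 17 UMIs in 6 barcodes and a ratio of 81.1 (interval 44.3 to 141). Ms4a6c (93.8), the monocyte growth factor receptor Csf1r (66.2), the protease Ctss (64.2) and the matrix protein Vcan (43.3) were also called higher. Fn1, which hepatocytes make in large amounts, was called lower (0.345). In the marker-rich barcodes, 5 of the same 12 genes were called higher, Plac8, Thbs1, Cd14, Mgst1 and Ifi27l2a, with a median log2 ratio of 1.79. Without the deepest barcode 3 were, Thbs1, Cd14 and Ifi27l2a. Plac8 and Ifi27l2a were thus called in both sets, Plac8 only with the deepest barcode. In scramble the 4 monocyte-leaning barcodes held 0 F13a1, 3 Lyz2, 3 Csf1r and 2 Ctss UMIs.

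The 4 scramble barcodes were unlike each other. They held 3, 4, 5 and 12 marker UMIs at depths of 10031, 849, 517 and 1104 UMIs, and 1, 4, 3 and 13 pan-leukocyte UMIs. The deepest had a hepatocyte share of 4.13%, and the others were between 0.193% and 0.906%. The 18 barcodes of shBicd2 ranged from 590 to 2281 UMIs, with hepatocyte shares under 10% in all but 1. Their median mitochondrial share was 10.5%, with a range of 0.141 to 24.3%, against 0.352% outside the members. The part of cell quality in these profiles was not tested.

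Macrophage and antigen presentation genes were found in some of the monocyte-leaning barcodes. Of 8 measured genes of monocyte-derived macrophages, 6 were called higher. C1qb, a subunit of complement C1q, had 10 UMIs in 5 of 18 barcodes, a ratio of 50.3 (interval 22.9 to 99.4). Lpl, lipoprotein lipase, had 7 UMIs in 5 barcodes, a ratio of 65.7 (interval 24.3 to 153), and the transcription factor Maf 12 UMIs in 8, a ratio of 32.8 (interval 16.4 to 59.8). Of 5 measured genes of MHC class II, which presents peptides to T cells, 4 were called higher, but all 33 UMIs of Cd74, the invariant chain, came from 2 barcodes. Of 55 UMIs of this list, 39 were in 1 barcode and 11 in another. The 15 T cell genes and the 11 B cell genes were at 0 in all 18 barcodes.

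Migration and oxidase genes had higher median ratios here than in either neutrophil-leaning set. Of 13 adhesion and chemoattractant receptor genes, 9 were called higher, with a median log2 ratio of 5.15. Ccr1, a receptor for inflammatory chemokines, had 14 UMIs in 10 barcodes and a ratio of 303 (interval 132 to 700). Itgam had 18 UMIs in 8 barcodes, a ratio of 158 (interval 83.7 to 291), and Itgb2 11 UMIs in 8, a ratio of 81.5 (interval 37.6 to 163). All 4 oxidase subunits were called higher, among them Cyba (53.3), Ncf1 (51.8) and Cybb (21.0). Ptprc had 31 UMIs in 14 of 18 barcodes, 1619 CPM and a ratio of 72.7 (interval 47.3 to 109). Ccl6 (124, interval 55.0 to 261) and Ccl9 (7.36, interval 1.98 to 19.2) were the chemokines called higher, while Cxcl1 (0.0393), Cxcl2 (0.178), Cxcl9 (0.24) and Cxcl10 (0.364) were called lower. Of 23 interferon gamma genes, 7 were called higher, Gbp2 among them (4.12, interval 2.24 to 6.94), and 1 lower. No hepatocyte gene of 24 was called higher, and 10 were called lower.

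The 2 sides were next compared with each other within shBicd2, as CPM of the 89 neutrophil-leaning over the 18 monocyte-leaning barcodes. Of 1792 genes with at least 20 UMIs over both sides, 7.2% were called higher on the neutrophil side and 5.86% on the monocyte side (129 and 105 genes). With trimmed mean scaling, which moved all genes by 1.08 log2, the counts were 405 and 37, so the split between the sides depends on the scaling. Of 24 hepatocyte genes, 19 were called higher on the neutrophil side, Alb at 3.76 (interval 2.57 to 5.73) among them.

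Granule genes were called in part, 2 of 4 measured, Ltf and Lcn2, both on the neutrophil side. Other genes called higher on that side were the chemokines Cxcl1 (15.7, interval 4.32 to 131) and Cxcl9 (7.09, interval 3.01 to 22.0), the immediate early gene Junb (7.99, interval 3.39 to 24.7) and the glycolysis regulator Pfkfb3 (16.2, interval 2.87 to 643). Their levels on the neutrophil side were 1644, 1852, 2085 and 845 CPM, against 2660, 1087, 2896 and 897 CPM outside the members. Ltf had 65 UMIs on the neutrophil side and 0 on the monocyte side, at least 2.15-fold higher with 3 counts over the monocyte side. Apoh (71 against 0 UMIs), Serpinc1 (62 against 0), Serpina1e (4.05), Mup7 (3.43), Mup11 (2.63) and Apoe (2.24) were also called higher there. Hepatocytes make these too, although the hepatocyte list does not hold them. The granule list had a median log2 ratio of 2.39 over 6 genes, or 0.86 with genes at 0 set to their bound. The other neutrophil list changed sign with that choice, from 0.82 to -0.17. On the monocyte side, the lysosomal protease Ctsc was 94.0-fold higher (interval 29.0 to 483), on 28 against 3 UMIs. Tgfbi, a matrix protein of monocytes, was 90.6-fold higher (interval 27.9 to 467) and the transcription factor Zeb2 49.1-fold (interval 22.6 to 122). Psap, the precursor of the saposins of the lysosome, had 104 against 49 UMIs and was 21.4-fold higher (interval 15.1 to 30.7). Ptprc was 17.3-fold higher (interval 9.40 to 32.9) and Itgam 15.1-fold (interval 6.88 to 34.4). The neutrophil side pools 64 barcodes with 3 to 7 marker UMIs and 25 marker-rich ones. Pan-leukocyte UMIs were at 562 CPM in the former and 1672 in the latter, against 5013 in monocyte-leaning barcodes. These ratios therefore hold for the pooled side and not for the marker-rich barcodes alone. The medians were -4.52 for 3 macrophage genes, -3.37 for 10 adhesion genes, -2.54 for 4 oxidase subunits and -2.24 for 12 pan-leukocyte genes, against -0.16 over 3726 genes. The classical monocyte median was -3.13 over 9 genes and 1.20 over the 5 with at least 20 UMIs. It was -0.17 over 7 genes when members needed at least 5 marker UMIs. The lower and upper bounds of those 7 genes had medians of -2.35 and 3.83, which do not form an interval of the list median. In scramble the sides had 13 and 4 barcodes, and 1 barcode held 10031 of the 12501 monocyte-side UMIs. Chemokine and immediate early medians were -1.25 (5 genes) and -0.76 (9 genes) there, against 1.01 and 1.33 in shBicd2. Type I interferon was at 0.69 against -0.60. Hepatocyte (1.46) and macrophage (-4.24, 2 genes) medians kept the sign of shBicd2.

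**Figure D4:**
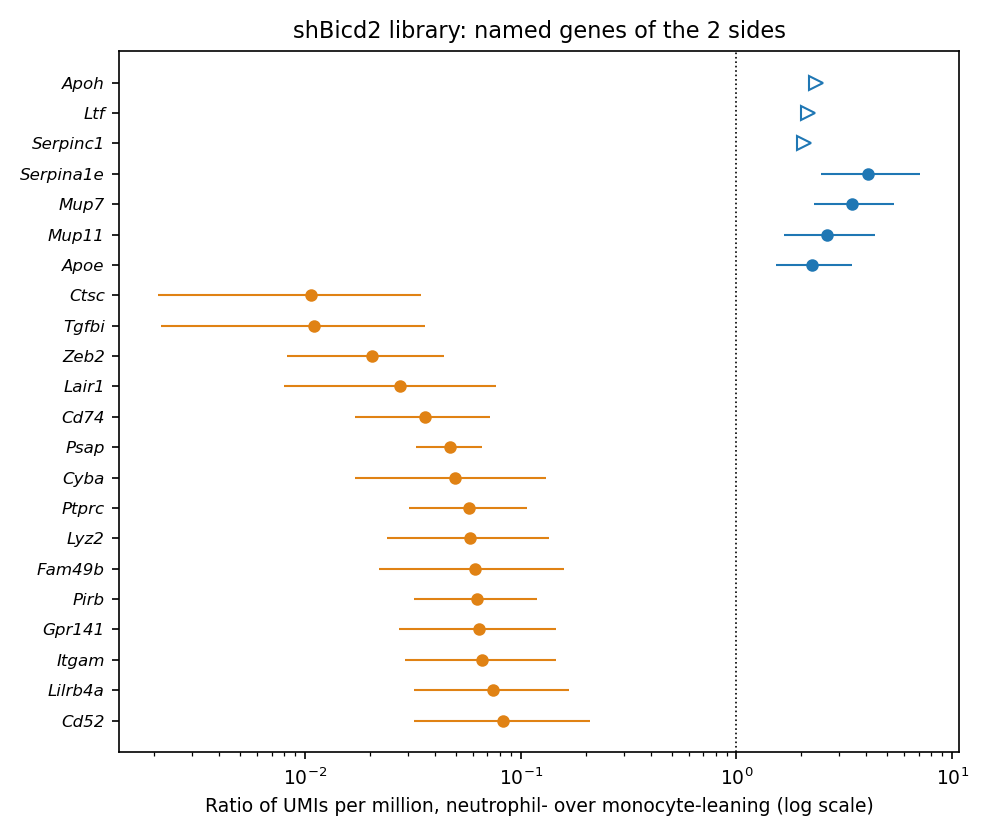
Ratio of CPM in neutrophil-leaning over monocyte-leaning barcodes of the library labelled shBicd2 (x axis, log scale, exact 95% bars) for 22 genes called in either direction. Hepatocyte-list genes, and genes whose level on the higher side was under 2 times that outside the members, are not drawn. Hepatocyte RNA is not fully removed by this. On the neutrophil side all genes drawn except Ltf are also made by hepatocytes and lie outside the list of 24: Apoh, Serpinc1, Serpina1e, Mup7, Mup11 and Apoe. Blue genes are higher on the neutrophil side and orange genes on the monocyte side; open triangles are lower bounds for genes with 0 UMIs on the monocyte side, drawn with 3 counts there, and the dotted line marks equal levels.

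Genes of these cells were finally compared between the libraries over all kept barcodes, where fewer cells of a type and less RNA per cell cannot be told apart. Of 11663 genes, 8.67% were called higher and 3.76% lower in shBicd2, with a median log2 ratio of 0.14. Granule genes were higher in part: 6 of 9 measured were called, with a median log2 ratio of 2.01. Camp (1.28, interval 0.578 to 2.95), Lcn2 (1.47) and Adam8 (1.53) were not called. Ltf had 12 UMIs in scramble and 110 in shBicd2, a ratio of 8.31 (interval 4.57 to 16.6), and Mmp9 6 and 69, a ratio of 10.4 (interval 4.55 to 29.4). Retnlg had 38 and 133, a ratio of 3.17 (interval 2.20 to 4.68), and Cd177 2 and 34, a ratio of 15.4 (interval 3.95 to 132). The members held 59.1% of the Ltf UMIs of shBicd2, 53.6% of those of Mmp9 and 42.1% of those of Retnlg, so much of this RNA lay outside them.

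A list of other neutrophil genes, which holds receptors, enzymes and secreted proteins, had a median log2 ratio of 0.73. Of its 11 measured genes, 2 were called higher, Slpi (2.58, interval 2.26 to 2.95) and Ifitm6 (5.44, interval 2.09 to 17.9). Cxcr2 had 12 and 23 UMIs, a ratio of 1.74 (interval 0.829 to 3.83), and Il1r2 22 and 34, a ratio of 1.40 (interval 0.796 to 2.51). Among the markers that chose the members, S100a8 had a ratio of 8.04 and Ngp one of 8.47, but Csf3r only 1.24 (interval 0.855 to 1.82) and Ccr2 1.60 (interval 0.970 to 2.70).

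Monocyte genes and general leukocyte genes were called in part. Of 13 classical monocyte genes, 4 were called higher. F13a1 had 0 UMIs in scramble and 32 in shBicd2, at least 9.66-fold higher with 3 counts in scramble, and Ctss had 17 and 74, a ratio of 3.94 (interval 2.31 to 7.13). Of 9 macrophage genes, 1 was called higher, the lysosomal protein Cd68 (5.08, interval 3.06 to 8.92), and 1 lower. Of 16 pan-leukocyte genes, 6 were called higher and 0 lower, and Ptprc, with 277 and 169 UMIs, had a ratio of 0.553 (interval 0.454 to 0.672). Of 13 adhesion and chemoattractant receptor genes, 4 were called higher, Itgam among them (3.75, interval 2.11 to 7.09), and 2 of 5 oxidase subunits, Cyba among them (2.39, interval 1.61 to 3.61). With trimmed mean scaling the counts were 5 of 9 granule, 4 of 16 pan-leukocyte and 1 of 5 oxidase genes.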

How the data were processed

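For 2 liver libraries, 1 in each group, the authors deposited raw UMI counts per gene and barcode, with 32287 features. Cell Ranger 6.0.1, Seurat 4.0.3 and mm10 are named per the submitters' processing notes, and Cell Ranger 6.1.2 stands in the matrices, per the file headers. The dissociation and any removal of doublets are not given in the sources used here.

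Kept barcodes had 200 genes or more and no more than 25% mitochondrial UMIs. Doublets were not removed in the reported values. Removing the highest Scrublet scores (0.8% of barcodes per 1000) in an alternative took out 62 and 73 barcodes, of which 0 and 3 were members. UMIs were summed per library and set and divided by the set's total (CPM). Intervals at 95% are exact: Poisson for sums, Clopper-Pearson for shares and conditional binomial for ratios. These cover counting error only. The range of a list median runs from the median lower bound to the median upper bound of its genes. It is not an exact interval and has no stated level. Where 0 UMIs were found, 3 were taken as the limit. No p-value was computed, because barcodes are not replicates. A gene was called when its interval lay beyond 1.5-fold, with at least 20 UMIs in the sets compared. List medians between the sides used genes with at least 10 UMIs over both sides, with 0.5 count added.

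Members and the 34 gene lists (419 of 423 symbols were in the files) were chosen with earlier results of these data known, and the division at 8 marker UMIs was chosen after seeing the data. Named genes were the markers, up to 6 genes per list with the most UMIs in the members described, and up to 15 called genes with the highest ratios each way between the sides (15 and 7 were found). Hepatocyte and erythroid list genes, and genes under 2 times their level outside the members, were left out of the last. Any other gene was named after its values were seen, and values of some list genes are not reported here. Promoters and start sites are from RefSeq (11 of 11 genes matched). Gene coordinates are from GENCODE on GRCm38, the assembly that mm10 names. The calculation was tested on simulated data. Python 3.11.15, numpy 2.4.6, scipy 1.17.1, pandas 2.3.3, scanpy 1.11.5 and matplotlib 3.10.9 were used, with edgeR 4.0.16 for trimmed mean (TMM) factors in an alternative.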

Additional observations from a re-analysis of the deposited data

How the results depend on the processing

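No paired analysis was possible because there was 1 library per group. Of 35 alternative values of the 3 shares, 31 kept their direction and stayed within the counting interval, but the monocyte-leaning ratio with mitochondrial UMIs of at most 10% was 2.07 (4 against 9 barcodes, interval 0.577 to 9.19). With at least 2 pan-leukocyte UMIs required, the neutrophil-leaning ratio was 12.7 (3 against 41 barcodes). With at least 8 marker UMIs, added after seeing the data, the ratios were 12.0 for all members (2 against 26), 23.2 for neutrophil-leaning ones and 0.926 for monocyte-leaning ones, on 1 barcode in each library. Of 258 alternative list medians between the sides, 249 stayed within the range of the main setting, 8 moved beyond it and 1 reversed. That range joins the median lower and median upper bound of a list's genes and is not an interval of the median. The 8 were hepatocyte (2.83 with TMM factors and 1.08 with hepatocyte markers under 10%), nuclear noncoding RNA (1.85, 1.22 and 1.09), proliferation (-2.67 and -3.76) and classical monocyte (-0.17 with at least 5 marker UMIs). In the reversed case, the classical monocyte median was 1.20 with genes of at least 20 UMIs. The cause was not tested, beyond the 5 genes left in that list instead of 9. Changes of sign were more frequent, since one within the range counted as staying. The sign changed in 3 of 22 list medians with genes of at least 20 UMIs, in 4 of 27 with TMM factors and in 0 to 2 in each other setting. Of 45 counts of called genes recomputed in alternatives added after seeing the data (without the deepest member barcode, with TMM factors, or with a total free of hepatocyte and mitochondrial UMIs), 40 stayed within 1.5 times. Without the deepest barcode, the marker-rich counts went from 13 to 0 for hepatocyte, 5 to 3 for classical monocyte, 2 to 1 for chemokine and 1 to 2 for interferon gamma genes. With TMM factors, oxidase genes higher in shBicd2 went from 2 to 1.

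Scaling decided the balance of calls. With CPM and TMM factors, 129 against 405 genes were called on the neutrophil side and 105 against 37 on the monocyte side (55.1% and 91.6% of calls on the neutrophil side). Over barcodes outside the members, the marker-rich set had 340 genes higher and 62 lower with CPM, and 237 and 137 with TMM (a shift of -0.30 log2). The monocyte-leaning set had 605 and 157 with CPM, and 268 and 576 with TMM (a shift of -1.26 log2). The TMM medians of type I interferon, interferon gamma, proliferation and the further Kupffer genes had the opposite sign between the sides. List medians between the libraries were not run, because each needed at least 20 barcodes and scramble had 13 and 4. Scramble's 17 members limit every value given for them.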

Other observations

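Single barcodes carried genes of other lineages. In each library 1 neutrophil-leaning barcode held at least 12 UMIs of Ebf1, a B lineage transcription factor: 12 UMIs in scramble and 15 in shBicd2, both in barcodes with 3 to 7 marker UMIs. Ebf1 was otherwise found at 17.5 and 21.0 CPM outside the members. Mpo, Elane and Prtn3, enzymes of the primary granules that are made in bone marrow precursors, had 2, 1 and 2 UMIs in monocyte-leaning barcodes of shBicd2, in 2 barcodes for Mpo and 1 each for Elane and Prtn3. The interferon regulatory factor Irf8, which is needed for monocytes and dendritic cells, had 16 UMIs in 10 of the 18 monocyte-leaning barcodes, 836 CPM against 139.5 outside the members.

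EGFP, a feature of the deposited gene list, differed between the sets. In shBicd2 it was at 900.5 CPM outside the members (in 28.1% of barcodes), 810.5 in neutrophil-leaning barcodes with 3 to 7 marker UMIs (101 UMIs in 17 of 64, of which 52 were in 1 barcode) and 73.3 in those with 8 or more (5 UMIs in 5 of 25). It had 1 UMI in the 18 monocyte-leaning barcodes and 0 in the 10 marker-rich barcodes with a hepatocyte share under 3%. In scramble it was at 66.1 CPM outside the members, in 5.98% of barcodes. The sources used here do not say which construct carries EGFP.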
